A study of Homo sapiens with 12 samples.

Results

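Nuclear-encoded oxidative phosphorylation genes carry the subunits of the 5 respiratory complexes that are not made inside the mitochondrion, together with factors that assemble them. They were taken here as the protein-coding genes whose symbol began with NDUF, UQCR, ATP5 or COX followed by a digit, plus CYC1, SDHA, SDHB and SDHC. This rule found 107 of the 58174 genes in the tables: 46 of complex I, 3 of complex II, 10 of complex III, 28 of complex IV and 20 of complex V. The libraries came from LN229 and U251, both established human glioblastoma lines, and measured mRNA by sequencing (TruSeq RNA kit). LN229 was grown in DMEM with 5% serum and U251 in EMEM with 10% serum, so line and medium cannot be told apart. Each line had 3 groups of 2 libraries: a mock reverse transfection, a control siRNA (siNT_OTP) and an siRNA against XRN2 (siXRN2), all harvested at 72 h. XRN2 is the nuclear exonuclease that degrades RNA downstream of the poly(A) site and helps to end transcription by RNA polymerase II. The labels do not say that replicates were separate cultures, so p-values measure the spread between these libraries, which may be technical.

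Complex I (NADH dehydrogenase), complex II (succinate dehydrogenase), complex III (cytochrome bc1) and complex IV (cytochrome c oxidase) pass electrons from NADH and succinate to oxygen, and complexes I, III and IV pump protons. Complex V, the ATP synthase, lets the protons back through its c-ring and makes ATP. Most of the subunits are nuclear genes, and the remaining ones are encoded by mitochondrial DNA, so the complexes need RNA from both genomes. The nuclear genes are known targets of the factors NRF1, GABP and YY1 and of the coactivators PPARGC1A and PPARGC1B.

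Promoter windows of some genes named in the results are shown first, as control elements that genes could share. Of the 107 members, 83 matched a RefSeq promoter (GRCh38.p14, 250 bases before the start of the gene to 50 after it), of 35116 promoters in all. Each was searched on both strands for the NRF1 motif (GCGCA, any base, GCGC), the ETS motif CCGGAAGT bound by GABP, and the YY1 motif AAGATGGCG. The NRF1 motif stood in 18 of the 83 (21.7%) and in 5.78% of all promoters, the ETS motif in 11 (13.3%) against 4.14%, and the YY1 motif in 9 (10.8%) against 1.75%. At least 1 of the 3 stood in 33 members (39.8%) and in 10.8% of all promoters, and a promoter with several motifs counts once for each of them. NDUFA2, ATP5G2, NDUFV2, COX14 and NDUFAF2, also named in the results, were searched and had none of the 3. The windows below come only from members with a match. They run 5′ to 3′ along the gene's strand, with the motif or its reverse complement in capitals. COX8A, NDUFS1, ATP5C1 and COX15 are members whose values with XRN2 siRNA in LN229 are given in full. UQCRC1, COX18 and NDUFA3 are members that differed between the lines. Their positions are, in the same order, chr11:63974590-63974619 (plus strand), chr2:206159584-206159613 (minus), chr10:7788145-7788174 (plus), chr10:99732117-99732146 (minus), chr3:48609604-48609633 (minus), chr4:73069744-73069773 (minus) and chr19:54102772-54102801 (plus).
COX8A, ETS: ccagctccagaACTTCCGGccagcgcagcc
NDUFS1, ETS: aggctggggccACTTCCGGcggaactgcgg
ATP5C1, NRF1: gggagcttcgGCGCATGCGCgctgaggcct
COX15, ETS: cgctgcccgacCCGGAAGTgcttctctttt
UQCRC1, YY1: ctgcagctggAAGATGGCGgcgtccgtggt
COX18, NRF1: gcaggcaggcGCGCATGCGCtttatgcccg
NDUFA3, NRF1: gtgctccaggGCGCACGCGCagccctggga
A match is a description of these letters, and binding was not measured.

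The libraries held 4846768 to 7469052 exon reads, and the members took 0.710 to 1.25% of them. Levels are given as counts per 1000000 exon reads (CPM) after scaling with edgeR's TMM factors, and 3 reads corresponded to 0.402 to 0.619 CPM. Both lines had VIM, NES and SOX2, markers of glial and neural stem cells. GFAP, the astrocyte filament, lay at 2348 to 6893 CPM in U251 and at 1.05 to 4.31 CPM in LN229, where S100B was at 294 to 568 CPM. PTPRC and EPCAM, markers of blood and epithelial cells, were under the level of 3 reads in all libraries. XRN2 itself was at 229 and 235 CPM in LN229 mock, 201 and 242 in control siRNA, and 33.5 and 25.6 in XRN2 siRNA libraries. In U251 it was at 138 and 143 CPM in mock, 144 and 134 in control siRNA, and 31.0 and 26.1 in XRN2 siRNA libraries. The XRN2 siRNA libraries thus did not overlap with the other groups of their line.

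The library that stood furthest apart for these genes was LN229 control siRNA replicate 1. Of the 98 members with enough reads to be tested, 95 were higher in it than in replicate 2 of its group, with a median log2 difference of 0.58, from −0.29 for COX15 to 0.96 for the complex I subunit NDUFA11. By complex the median difference was 0.65 for I, 0.30 for II, 0.50 for III, 0.56 for IV and 0.55 for V, so every complex took part. The 2 U251 control siRNA libraries differed by a median of −0.02 over the same members, and the 2 LN229 mock libraries by −0.04. The 2 U251 mock libraries differed too, by a median of 0.16 with 77 of 98 members higher in replicate 1, against 0.02 for all genes. In U251 mock replicate 2 the summed level of the glial and neural stem markers was also lower, at 7971 CPM against 13349 to 15661 CPM in the other 5 U251 libraries, and the part of this in the results was not tested. Between the 2 LN229 control siRNA libraries, short genes differed most. Across the members, the difference between these 2 libraries had a Spearman correlation of −0.46 with exon length. Across all 14232 genes tested it was −0.49, between the same 2 libraries. The members tested had a median exon length of 2577.5 bases, against 4876.5 for all genes tested. Introns gave 2.56% of the members' gene reads in LN229 control siRNA replicate 1 and 4.22 to 5.60% in the other 11 libraries. Similar differences between the LN229 control siRNA replicates were seen for mitochondrial ribosomal protein genes (median 0.51) and cytosolic ones (0.66). Smaller ones were seen for mitochondrially encoded mRNAs and for the genes of the tricarboxylic acid cycle (0.10 each). The part of RNA length or RNA quality in these values was not tested.

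**Figure D1:**
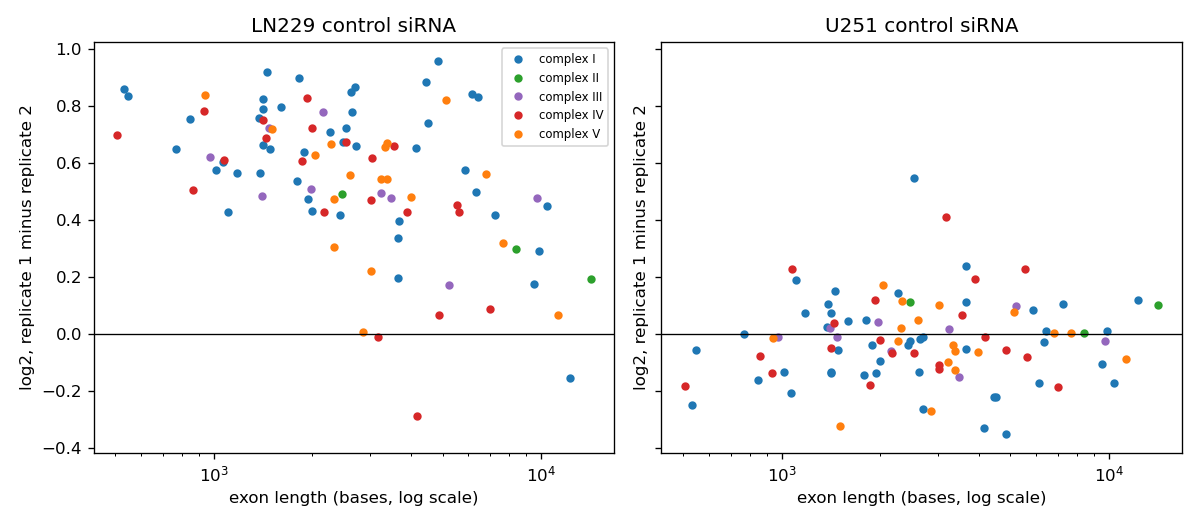
Log2 difference between the 2 control siRNA libraries of each line (replicate 1 minus replicate 2) against exon length in bases, on a log axis, for each tested member other than NDUFC2-KCTD14 and NDUFA4L2, coloured by complex. In LN229 nearly all points lie above 0, with a median of 0.58 and lower values for long genes, while in U251 they lie around −0.02.

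The summed mRNA of the complexes hardly moved with XRN2 siRNA once that library was set aside. In LN229 the members together took 8125 and 8358 CPM in mock, 12222 and 8339 in control siRNA, and 8370 and 8045 in XRN2 siRNA libraries. Control siRNA replicate 1 was thus the only library of the 6 outside 8045 to 8370. In U251 the totals were 8680 and 7609 CPM in mock, 8337 and 8533 in control siRNA, and 8363 and 8361 in XRN2 siRNA libraries, with mock replicate 2 the lowest. As log2 ratios of group means, the LN229 total with XRN2 siRNA was −0.32 against both control siRNA libraries (replicate SD 0.28), −0.012 against control siRNA replicate 2 and mock (SD 0.030) and −0.0059 against mock (SD 0.035). The 3 ratios share their XRN2 siRNA libraries and some controls. In U251 they were −0.013, 0.015 and 0.038, with replicate SDs of 0.017, 0.084 and 0.095. Sums of chosen genes were given no test. A CPM is a share of a library, so fewer cells with an mRNA and less of it per cell cannot be told apart.

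With TMM scaling, complexes I, II, III and V had their XRN2 siRNA libraries among or next to the controls, and complex IV had them below. Complex I, which brings in electrons from NADH, was at 2522 and 2545 CPM in LN229 mock, 3779 and 2474 in control siRNA, and 2477 and 2438 in XRN2 siRNA libraries. Complex V was at 2705 and 2866 CPM in mock, 4100 and 2872 in control siRNA, and 2964 and 2859 in XRN2 siRNA libraries. For complex V, XRN2 siRNA replicate 2 lay among the controls, and replicate 1 lay above all of them but control siRNA replicate 1. As a plain share of exon reads, both complex V values (0.3227 and 0.3215%) lay above mock (0.2871 and 0.3029%) and control siRNA replicate 2 (0.3013%). They lay below control siRNA replicate 1 (0.41995%). For complex I, XRN2 siRNA replicate 1 lay just inside the range of the controls and replicate 2 just below it. Complex IV, the terminal oxidase, was at 1650 and 1681 CPM in mock, 2561 and 1693 in control siRNA, and 1641 and 1495 in XRN2 siRNA libraries. Here both XRN2 siRNA libraries were the lowest of the line, replicate 1 next to the mock libraries and replicate 2 further down. The log2 ratio to control siRNA replicate 2 and mock was −0.095 (replicate SD 0.057). As a plain share of exon reads, XRN2 siRNA replicate 1 (0.1786%) lay above mock (0.1752 and 0.1776%) and control siRNA replicate 2 (0.1776%). Replicate 2 (0.1681%) lay below them. The complex IV mean was 1666 CPM in mock and 1568 with XRN2 siRNA. That of COX8A was 187 and 101, so COX8A alone fell by nearly as much. Complex II lay between 358 and 376 CPM and complex III between 877 and 933 CPM in these libraries, apart from control siRNA replicate 1 at 446 and 1335 CPM.

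**Figure D2:**
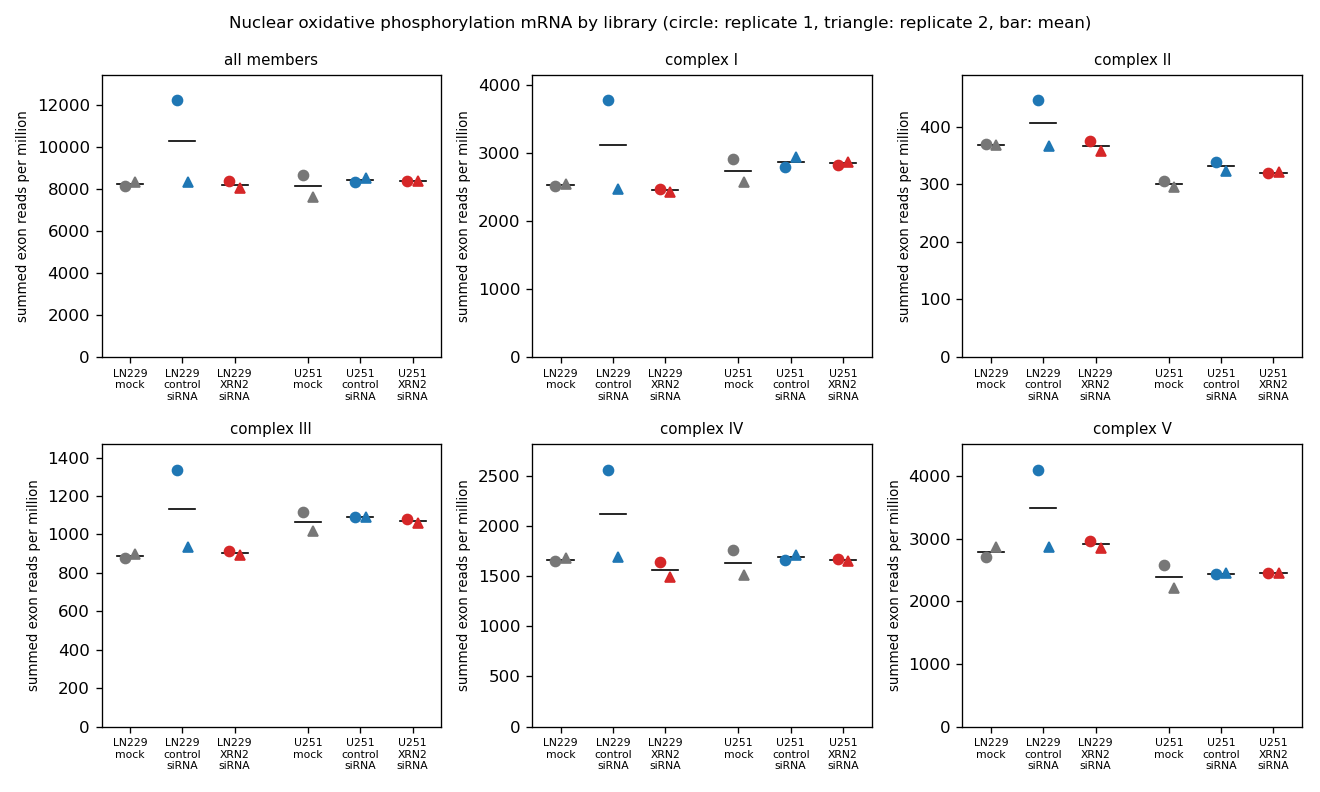
Summed CPM of exon reads of all members and of the members of each complex, in the 12 libraries grouped by line and treatment; circles are replicate 1, triangles replicate 2, and bars group means. The LN229 control siRNA replicate 1 lies at 12222 CPM for all members, while the other 5 LN229 libraries lie between 8045 and 8370.

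Against both control siRNA libraries of LN229, COX8A and NDUFA2 fell, 2 of the 98 members tested; 3.16% of all genes tested passed the same test, 1.95% as lower (edgeR's quasi-likelihood test, adjusted p under 0.05 over all genes). COX8A encodes a small structural subunit of complex IV (chr11:63974607-63976543, plus strand, exon length 507 bases). It was at 182 and 192 CPM in mock, 298 and 183 in control siRNA, and 123 and 78.8 in XRN2 siRNA libraries of LN229, which lay below all 4 controls. Its log2 fold change was −1.25 (SE 0.23, adjusted p = 0.0187), and of its reads 53.2% were unique to it. NDUFA2 encodes an accessory subunit of complex I (chr5:140638740-140647785, minus strand). It was at 49.5 and 56.2 CPM in mock, 87.4 and 55.5 in control siRNA, and 34.6 and 20.8 in XRN2 siRNA libraries, again with no overlap. Its log2 fold change was −1.35 (SE 0.27, adjusted p = 0.0251). In both genes XRN2 siRNA replicate 2 was the lowest library, and without it COX8A was at −0.97 (adjusted p = 0.280) and NDUFA2 at −1.04 (adjusted p = 0.311).

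The other members leaned the same way in that comparison without passing. Of the 98, 91 lay below 0, with a median of −0.32 against 0.00 for all genes tested, and 32 had an unadjusted p under 0.05, as had 22.2% of all genes. UQCRH, the hinge protein of complex III, was nearest to passing, at −0.59 (SE 0.17, adjusted p = 0.0750), and passed with DESeq2 (adjusted p = 0.0364). COX15, the heme A synthase, at 0.25 (SE 0.15), and ATP5S, an ATP synthase-associated factor, at 0.28 (SE 0.17), were among the 7 members above 0, as was the readthrough gene NDUFC2-KCTD14, whose few reads are given with it. The lean rested on control siRNA replicate 1. Without it 41 of 98 lay below 0, the median was 0.05 and no member passed (COX8A −0.83, adjusted p = 0.0936; NDUFA2 −0.96, adjusted p = 0.142), with 0.465% of all genes called. Without replicate 2 instead, 59 members were called lower, with a median of −0.60 and 22.5% of all genes called, 11.4% as lower.

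Control siRNA against mock in LN229 showed the same library from the other side. No member passed by edgeR or DESeq2 (0% of genes by edgeR), yet 94 of 98 lay above 0, with a median of 0.35 and 21 at an unadjusted p under 0.05, as were 4.55% of all genes. UQCRQ, a small complex III subunit, was at 0.55 (SE 0.19), NDUFB5 at 0.52 (SE 0.18) and NDUFB8 at 0.44 (SE 0.15). Without control siRNA replicate 1 the median was 0.01, and without replicate 2 it was 0.63 with 60 members called higher and 13% of all genes called, 5.53% as higher.

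Against control siRNA replicate 2 and both mock libraries, a fit that leaves out control siRNA replicate 1, 3 members fell and 2 rose in LN229; 10.7% of all genes passed there, 5.61% as lower and 5.14% as higher, so 5 of 98 is not above the background. These controls are partly those of the comparisons above. COX8A was at −0.85 (SE 0.15, adjusted p = 0.00672) and NDUFA2 at −0.91 (SE 0.20, adjusted p = 0.0188). NDUFS1, an iron–sulfur core subunit of complex I that takes part in electron transfer (chr2:206114817-206159603, minus strand), was at 158 and 158 CPM in mock, 138 and 153 in control siRNA, and 117 and 93.3 in XRN2 siRNA libraries. It was the lowest in both XRN2 siRNA libraries, and its log2 fold change was −0.54 (SE 0.10, adjusted p = 0.00672). NDUFS1 has an exon length of 12268 bases and was 1 of the 3 members that were not higher in control siRNA replicate 1.

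NDUFB5, an accessory subunit of the membrane arm of complex I, rose by 0.44 (SE 0.11, adjusted p = 0.0287). It was at 42.0 and 42.8 CPM in mock, 72.9 and 48.8 in control siRNA, and 56.8 and 61.5 in XRN2 siRNA libraries, so both XRN2 siRNA libraries lay above 3 controls and below the fourth. ATP5C1, the gamma subunit that forms the rotating stalk of the ATP synthase, rose by 0.29 (SE 0.09, adjusted p = 0.0479), from 112 and 114 CPM in mock and 124 in control siRNA replicate 2 to 144 and 134. Control siRNA replicate 1 was the highest, at 173 CPM. NDUFS8, another iron–sulfur core subunit of complex I, was at 0.32 (SE 0.10, adjusted p = 0.0654), and passed without XRN2 siRNA replicate 1 (0.44, adjusted p = 0.0210) but was at 0.19 without replicate 2 (adjusted p = 0.529). The median of the members was 0.03, against 0.02 for all genes. COX8A passed when any 1 of the 5 libraries was left out, with adjusted p up to 0.0291. NDUFS1 did not pass without XRN2 siRNA replicate 2 (−0.39, adjusted p = 0.0689), nor NDUFA2 without that library, mock replicate 2 or control siRNA replicate 2 (adjusted p = 0.165, 0.0648 and 0.0603). NDUFB5 did not pass without either mock library or XRN2 siRNA replicate 2 (adjusted p = 0.0915, 0.101 and 0.243), and ATP5C1 without any 1 of the 5 (adjusted p from 0.0671 to 0.154).

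Against mock alone no member passed edgeR's test in LN229, where 1.28% of all genes did, and 6 had an unadjusted p under 0.05, as had 16.5% of all genes. This fit took the spread from all 12 libraries, LN229 control siRNA replicate 1 included. COX8A had an SE of 0.23 in it and 0.15 in the fit without that library, which also pooled control siRNA replicate 2 with mock. The part of that library in the SEs was not tested. NDUFS1 was at −0.59 (SE 0.14, adjusted p = 0.0571), COX8A at −0.89 (SE 0.23, adjusted p = 0.0740) and NDUFA2 at −0.92 (SE 0.27, adjusted p = 0.108). DESeq2 called 2 members there, NDUFS1 (adjusted p = 0.0154) and COX8A (adjusted p = 0.0124). Without XRN2 siRNA replicate 1, edgeR called NDUFS1 (−0.77, adjusted p = 0.0208), COX8A (−1.26, adjusted p = 0.0216) and NDUFA2 (−1.35, adjusted p = 0.0377). Without XRN2 siRNA replicate 2 they were at −0.43, −0.61 and −0.61 (adjusted p = 0.632, 0.731 and 0.833). NDUFB5 was at 0.48 (SE 0.18) and COX15 at 0.34 (SE 0.15). Values of genes for other cell types moved in the same libraries. The summed level of 10 such markers was 217 to 260 CPM in the 4 LN229 controls and 354 and 469 CPM in the XRN2 siRNA libraries. The summed level of 6 glial and neural stem markers was 4201 to 5584 CPM in the controls and 3545 and 2688 CPM with XRN2 siRNA. Their part in the results on the members was not tested.

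**Figure D3:**
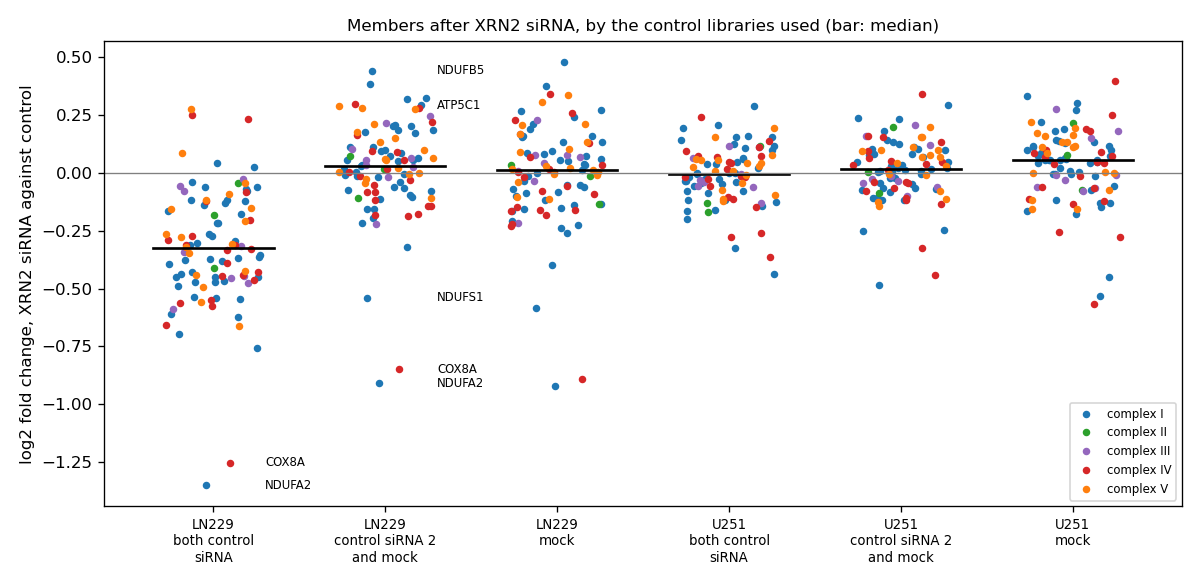
Log2 fold change with XRN2 siRNA for each tested member other than NDUFC2-KCTD14 and NDUFA4L2, in each line and against each set of control libraries; colours are complexes, bars are medians, and named genes passed at adjusted p under 0.05. Against both LN229 control siRNA libraries the cloud is centred at −0.32, and in the other 5 comparisons within 0.06 of 0, while COX8A and NDUFA2 lie below the rest of the LN229 clouds in all 3.

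In U251 no member passed in any comparison of XRN2 siRNA with its controls, by edgeR or DESeq2 with all libraries. These fits took part of their spread from LN229 control siRNA replicate 1. Its part in the SEs was not tested, so the lack of calls does not show a lack of response. Against both U251 control siRNA libraries, where 0.00703% of all genes passed, none of 98 members had even an unadjusted p under 0.05, as had 3.88% of all genes. Their median was −0.01. COX8A was at 176 and 152 CPM in mock, 166 and 188 in control siRNA, and 143 and 132 in XRN2 siRNA libraries, which were again the lowest 2. Its log2 fold change was −0.37 (SE 0.23), and the difference between the lines was −0.89 (SE 0.32, unadjusted p = 0.0166, adjusted p = 0.714), with a range of −1.25 to −0.46 when 1 library was left out. It was −0.46 without LN229 control siRNA replicate 1 (adjusted p = 0.900), −0.60 without LN229 XRN2 siRNA replicate 2 (adjusted p = 1.000) and −1.20 without LN229 control siRNA replicate 2 (adjusted p = 0.0279). NDUFA2 was at −0.44 (SE 0.27), with 29.1 and 31.9 CPM in XRN2 siRNA libraries inside the range of the mock libraries, 41.4 and 25.6. No member differed between the lines in its response by edgeR or DESeq2 (0% of all genes by edgeR, and 7 members and 6.64% of all genes at an unadjusted p under 0.05), with 87 of 98 differences below 0 and a median of −0.31. Without LN229 control siRNA replicate 1 the median difference was 0.03 with none called, and without LN229 control siRNA replicate 2 it was −0.57 with 35 called lower, where 7.6% of all genes were called, 3.39% as lower.

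Against U251 mock, where 0.0492% of genes passed, 6 members and 10.7% of all genes had an unadjusted p under 0.05. Against control siRNA replicate 2 and mock, where 0.0635% passed, 4 of the 97 members tested and 6.22% of all genes did. The median of the members against mock was 0.06, and −0.04 without mock replicate 2 and 0.17 without mock replicate 1. Apart from the readthrough gene NDUFC2-KCTD14 (5.97 against mock, on few reads), COX15 was highest among them. COX15 was at 0.40 (SE 0.15) against mock and 0.34 (SE 0.14) against the joint controls. The copper chaperone COX19 was at −0.57 (SE 0.20) and −0.44 (SE 0.20), and the complex I assembly factor NDUFAF2 at −0.53 (SE 0.22) and −0.49 (SE 0.21). Their adjusted p-values were 0.383 or more against mock and 0.774 or more against the joint controls. Control siRNA against mock in U251, where 0% of genes passed by edgeR, gave no call by DESeq2 either, and 1 member, the low NDUFA4L2 (unadjusted p = 0.0218, adjusted p = 0.974), and 4.79% of all genes had an unadjusted p under 0.05. SDHA, the flavoprotein of complex II, was at 0.21 (SE 0.14, unadjusted p = 0.151) there.

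Some members kept both XRN2 siRNA libraries clear of all 4 mock and control siRNA libraries. In LN229 these were 16 of 98 below (16.8% of all genes lay so) and 3 above (16%), and in U251 8 below (10.5%) and 13 above (13.8%), so the counts were near or under the background. COX8A, NDUFS1 and NDUFAF2 were below and COX15 above in both lines. The share of all genes that lay so in both lines was not counted, so these members cannot be set above the background. COX15, which makes the heme A of complex IV (35.4% of its reads unique), was at 34.0 and 40.0 CPM in LN229 mock, 35.5 and 43.4 in control siRNA, and 44.3 and 49.9 in XRN2 siRNA libraries. In U251 it was at 42.0 and 41.7 CPM in mock, 46.4 and 46.8 in control siRNA, and 53.4 and 56.8 in XRN2 siRNA libraries. NDUFAF2 was at 18.6 and 13.8 CPM with XRN2 siRNA in LN229 against 19.0 to 28.6 in the controls, and at 20.6 and 20.1 CPM in U251 against 24.3 to 34.0. NDUFS1 was at 119 and 114 CPM with XRN2 siRNA in U251 against 121 to 132 in the controls, a narrower gap than in LN229. COX15 and NDUFAF2 passed no test in any comparison with XRN2 siRNA.

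**Figure D4:**
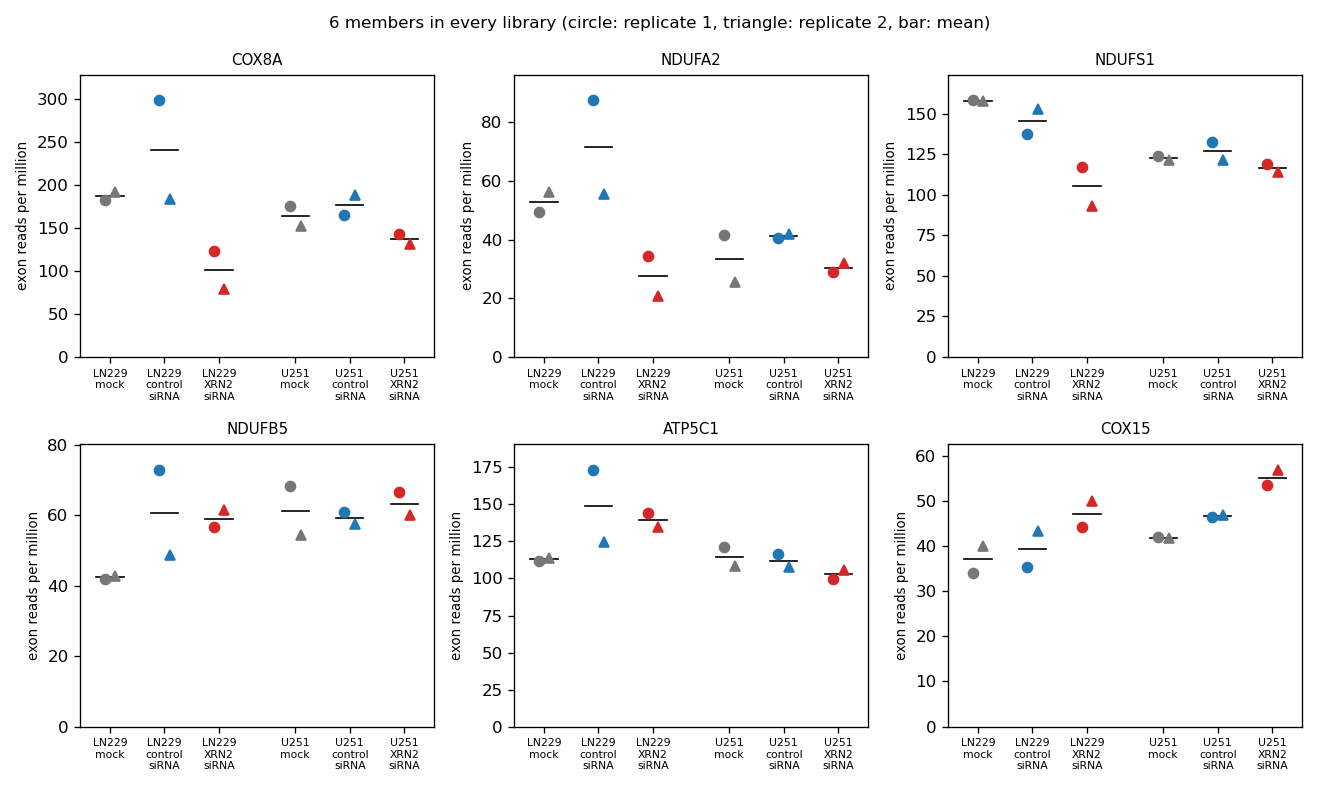
CPM of exon reads of COX8A, NDUFA2, NDUFS1, NDUFB5, ATP5C1 and COX15 in the 12 libraries, grouped by line and treatment; circles are replicate 1, triangles replicate 2, and bars group means. COX8A and NDUFS1 have their lowest values of each line in the XRN2 siRNA libraries, and COX15 its highest.

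The tissue isoforms of complex IV were near absent. COX4I2, COX6A2, COX8C and ATP5L2, a copy of the complex V subunit g gene, had 0 reads in all 12 libraries, COX7A1 had 1 in all, COX7B2 had 2, and COX6B2 had 15. The ubiquitous partners were all present: COX4I1 lay at 116 to 298 CPM, COX6A1 at 95.1 to 155, COX6B1 at 61.8 to 125, COX7A2 at 70.1 to 146 and COX7B at 58.3 to 104. COX7A2L, which joins complexes III and IV, lay at 69.0 to 102 CPM. The retrocopies UQCRHL and ATP5EP2 had 15 and 9 reads, and their reads cannot be told with certainty from those of UQCRH and the ATP5E gene. These 9 genes, 6 of complex IV, 2 of complex V and 1 of complex III, were too low for the test. NDUFA4L2, a paralog of NDUFA4 known as a hypoxia-induced gene, had 11, 8, 12, 10, 8 and 8 reads in the LN229 libraries and 4, 13, 1, 3, 0 and 1 in those of U251, in the order mock, control siRNA, XRN2 siRNA. It led the lower members in U251 against mock (unadjusted p = 0.00199, adjusted p = 0.282), on the 13 reads of mock replicate 2, and was the 1 member that passed against U251 mock without mock replicate 1 (adjusted p = 0.0264).

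The readthrough gene NDUFC2-KCTD14, annotated across the complex I subunit gene NDUFC2 and its neighbour KCTD14, had 0, 0, 1 and 0 reads in the LN229 controls and 11 and 0 with XRN2 siRNA. In U251 it had 0, 0, 1 and 1 in the controls and 12 and 4 with XRN2 siRNA. Unique reads were 2 and 0 with XRN2 siRNA in LN229 and 1 and 0 in U251, and at most 1 in any control library. It did not pass in either line (adjusted p = 0.101 or more), and its reads are shared with NDUFC2, of which 26.2% were unique.

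Per exon base, the leading member differed in size between the complexes. In CPM per exon kilobase, averaged over the 12 libraries, COX8A was at 331 and COX6A1 at 128 in complex IV, with COX7B the lowest tested subunit at 27.1. The catalytic beta subunit ATP5B was at 234, ATP5I at 82.8 and ATP5G1 at 25.6 in complex V. NDUFS5 was at 214, NDUFA1 at 110 and NDUFA9 at 4.93 in complex I, and UQCRH at 101, UQCRQ at 79.4 and UQCRB at 17.2 in complex III. In complex II SDHB was at 30.3, SDHA at 13.8 and SDHC at 11.2, so this complex had the lowest leaders of the 5. Exon length is the union of all annotated transcripts, which lowers the per-kilobase level of genes with long rare transcripts, such as SDHC at 14160 bases and NDUFA9 at 10391.

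Between the lines, 46 of 98 members differed in mock libraries, 18 higher and 28 lower in LN229, while 55% of all genes tested passed, 28% as higher and 27% as lower. The total over all members had a log2 ratio of 0.017 (replicate SD 0.097) with TMM scaling and 0.20 when libraries were scaled by their size alone, and the complexes did not move together. Complex II was higher in LN229 by 0.29 (SD 0.025) and complex V by 0.22 (SD 0.12), complex IV was at 0.027 (SD 0.11), and complex I was at −0.12 (SD 0.088) and complex III at −0.27 (SD 0.071). The directions of II, III and V held with library size alone (0.47, −0.086 and 0.40), while that of complex I turned (0.064) and complex IV was at 0.21. That scaling moved the median of all genes from 0.03 to 0.21 and turned the split of called members to 25 higher and 14 lower. The shares of all genes called with that scaling are not given, so this split is not set against a background.

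ATP5G2, 1 of 3 genes that encode the same c-ring protein of the ATP synthase, differed most clearly (chr12:53632726-53677408, minus strand). It was at 223 and 231 CPM in LN229 mock and 98.7 and 93.8 in U251 mock, which is 1.24 on the log2 scale (SE 0.16, adjusted p = 2.36e-05). It gave 42.9 to 46.9% of the c-ring mRNA in the LN229 libraries and 31.8 to 35.6% in those of U251, with no overlap. ATP5G3 was the larger share in U251, at 46.9 to 50.1% against 39.5 to 42.8%, and ATP5G1 gave 17.4 to 18.5% against 13.2 to 15.6%. XRN2 siRNA libraries stayed within or next to the range of their line's controls for ATP5G2, at 43.7 and 46.9% in LN229 and 34.0 and 34.8% in U251. ATP5B was also higher in LN229, by 0.54 (SE 0.14, adjusted p = 0.00431).

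Complex II was split. SDHC, a membrane anchor, was at 195 and 194 CPM in LN229 mock and 117 and 104 in U251 mock (log2 0.82, SE 0.13, adjusted p = 0.000191). SDHB, the iron–sulfur subunit, was at 58.8 and 61.6 CPM in LN229 and 79.4 and 92.7 in U251 (−0.52, SE 0.16, adjusted p = 0.0172), so the subunits went in opposite directions. SDHB did not pass without LN229 mock replicate 1, LN229 mock replicate 2 or U251 mock replicate 2 (adjusted p = 0.0964, 0.0666 and 0.110), nor when libraries were scaled by size alone (adjusted p = 0.0889). In complex III, UQCRC1, a core protein (−0.74, SE 0.16), UQCRFS1, the Rieske iron–sulfur protein (−0.72, SE 0.16), and UQCRB, near the quinone site (−0.81, SE 0.17), were lower in LN229, with adjusted p from 0.00134 to 0.00184. UQCRC1 was at 141 and 132 CPM there and 223 and 233 in U251.

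Complex I members went both ways, 9 higher and 15 lower in LN229. NDUFA9 was higher by 0.66 (SE 0.16) and the assembly factor NDUFAF8 by 0.80 (SE 0.20). The iron–sulfur subunit NDUFV2 was at 63.6 and 60.9 CPM in LN229 mock against 119 and 108 in U251 mock (−0.87, SE 0.18, adjusted p = 0.0012), but 10.9% of its reads were unique. NDUFA3 was at −1.01 (SE 0.21) and the assembly factor NDUFAF1 was at −0.86 (SE 0.22). In complex IV, NDUFA4, now counted as a subunit of that complex, was at 238 and 225 CPM against 132 and 102 (0.99, SE 0.20, adjusted p = 0.00111). COX14, an assembly factor, was higher by 0.97 (SE 0.21), and COX18, which inserts a mitochondrially encoded subunit into the membrane, was lower (−0.83, SE 0.17, adjusted p = 0.00131). Beyond the 15 members of smallest p, the calls were 10 higher in LN229, by 0.37 to 0.69, and 21 lower, at −0.81 to −0.35. With 1 of the 4 mock libraries left out, 19 to 33 members passed, the fewest without LN229 mock replicate 2 and 21 without LN229 mock replicate 1. NDUFAF1 did not pass without LN229 mock replicate 2 (−0.75, adjusted p = 0.0514).

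**Figure D5:**
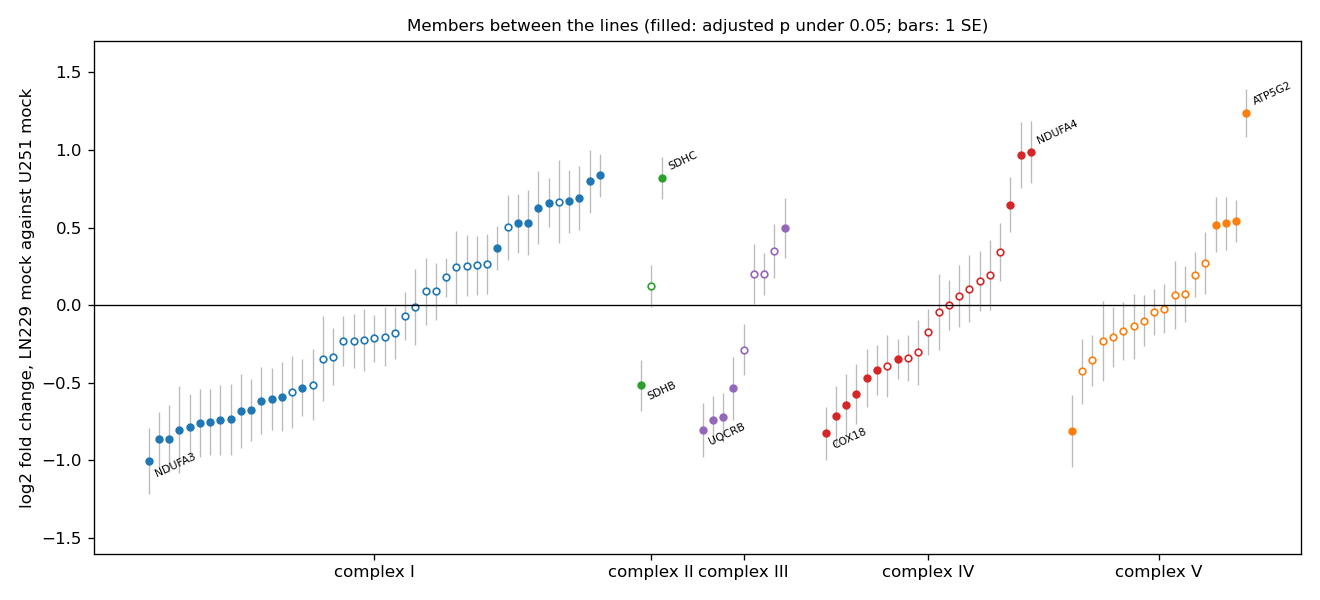
Log2 fold change of LN229 mock against U251 mock for each tested member other than NDUFC2-KCTD14 and NDUFA4L2, sorted within each complex; vertical bars are 1 standard error and filled points passed at adjusted p under 0.05. ATP5G2 at 1.24 is the highest and NDUFA3 at −1.01 the lowest.

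A list of 14 regulators held factors known to act on the nuclear genes, and also TFAM, TFB1M, TFB2M and POLRMT, which act on mitochondrial DNA or RNA. Of the 14, 7 differed between the lines, 2 higher and 5 lower in LN229, a share near the 55% of all genes. The coactivator PPARGC1A had 0 CPM in 4 of the 6 LN229 libraries and at most 0.175 CPM, under the level of 3 reads, and lay at 7.39 to 17.4 CPM in U251 (edgeR adjusted p = 3.95e-06 in mock). Its relative PPARGC1B lay at 6.24 to 17.0 CPM in LN229 and 0.382 to 0.890 CPM in U251 (adjusted p = 2.85e-05), so the coactivators had opposite patterns in the lines. The mitochondrial RNA polymerase POLRMT was lower in LN229 (−0.57, SE 0.16, adjusted p = 0.00846). Among 13 mitochondrially encoded mRNAs 2 were lower, MT-ND1 at −0.61 (SE 0.16) and MT-CO1 at −0.40 (SE 0.13). Mitochondrially encoded mRNA stood at 3.07 to 3.55 times the nuclear members' total in 5 LN229 libraries, at 2.34 times in control siRNA replicate 1, and at 3.61 to 4.04 times in U251.

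The other lists are read against the 28% of all genes that were higher and the 27% that were lower in LN229. Of 37 assembly factors outside the members, 8 were higher and 9 lower, led by TTC19 of complex III (−1.55, SE 0.15) and UQCC1, also of complex III (1.03, SE 0.15). Of 17 genes of the tricarboxylic acid cycle and pyruvate dehydrogenase, which feed electrons to the chain, 4 were higher and 5 lower. The pyruvate dehydrogenase genes PDHA1 (−1.69, SE 0.13) and DLAT (−1.62, SE 0.16) were lower and citrate synthase CS (0.70, SE 0.13) was higher. Of 8 carriers and cytochrome c genes 1 was higher and 2 lower, of 11 coenzyme Q genes 1 and 3, of 78 mitochondrial ribosomal protein genes 15 and 17, and of 83 cytosolic ones 2 and 44.

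With XRN2 siRNA in LN229, 2 of the 14 listed regulators fell against control siRNA replicate 2 and mock, where 5.61% of all genes did. Both act on mitochondrial DNA or RNA. None of the listed factors of the nuclear genes was called lower, although some of them also lay below every LN229 control. TFB1M, which methylates mitochondrial ribosomal RNA, was at 9.91 and 9.25 CPM in mock, 7.65 and 7.74 in control siRNA, and 4.34 and 4.73 in XRN2 siRNA libraries (log2 −0.96, SE 0.20, adjusted p = 0.0111). TFAM, which packages mitochondrial DNA and starts its transcription, was at 57.2 and 55.5 CPM in mock, 55.2 and 59.2 in control siRNA, and 44.3 and 31.3 in XRN2 siRNA libraries (−0.56, SE 0.13, adjusted p = 0.0179). Neither set of values overlapped with the controls, control siRNA replicate 1 included. Nor did those of MYC, at 20.9 and 13.8 CPM with XRN2 siRNA against 26.7 to 29.8 in the LN229 controls. GABPB1 was at 25.3 and 19.8 CPM against 31.0 to 37.3, and NRF1 at 23.3 and 20.1 against 24.7 to 30.4. GABPA and ESRRA lay above every LN229 control, and TFB2M and POLRMT overlapped with them. Of all genes, 16.8% lay below and 16% above all 4 controls. Against both control siRNA libraries the 2 were at −0.77 (adjusted p = 0.0752) and −0.59 (adjusted p = 0.0667), and against mock TFB1M passed (−1.08, adjusted p = 0.0325) and TFAM did not (−0.57, adjusted p = 0.103). In U251 TFAM lay at 72.9 and 66.9 CPM with XRN2 siRNA against 69.8 to 88.2 in the controls, and none of the 14 passed against control siRNA.

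The other lists had few calls in that LN229 comparison without control siRNA replicate 1, where 10.7% of all genes passed. MT-CO2 rose among the mitochondrially encoded mRNAs (0.32, SE 0.08), TTC19 among the assembly factors (0.42, SE 0.08), the outer membrane channel VDAC1 among the carriers (0.29, SE 0.08) and COQ8B among the coenzyme Q genes (0.50, SE 0.15). None of 17 genes of the tricarboxylic acid cycle passed. Of 78 mitochondrial ribosomal protein genes, 2 rose and 2 fell, with MRPL12 at −0.56 (SE 0.11) and MRPL18 at −0.44 (SE 0.12), the same 2 that fell against both control siRNA libraries, at −1.01 and −0.86. Of 83 cytosolic ribosomal protein genes 1 rose and 1 fell, RPS13 at 0.27 (SE 0.07) and RPS2 at −0.31 (SE 0.08). The medians of the lists lay between −0.08 and 0.15, against 0.02 for all genes.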

How the data were processed

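Each of the 12 libraries came with a table of its genes. Per the file headers, the authors deposited total, unique and intron read counts per gene, RPKM and TPM. For aligner and counter: not given in the sources used here. The builds in the submitters' processing notes are hg19 and GRCh37, whereas 96.8% of the 57836 gene IDs shared with GENCODE 29 have its GRCh38 coordinates (104 of 107 members), so gene positions are given as GRCh38. Total exon read counts, as deposited, were fitted with edgeR 4.0.16 (quasi-likelihood, robust, TMM, filterByExpr with a minimum count of 10) over all 12 libraries, 1 mean per group, with 6 residual degrees of freedom. The deposited RPKM and TPM of the authors were not tested. Calls are at a Benjamini-Hochberg adjusted p of 0.05 over all genes tested (14232 with all libraries). SE is the log2 fold change over the root of F. Alternatives used DESeq2 1.42.0, other scalings, filters, unique reads, an exon length offset, a replicate block and left-out libraries. Code was tested on simulated data. The members and all gene lists were chosen with earlier results of these data known. Named genes are XRN2, members that passed (up to 15 per comparison), the 3 members above and 3 below 0 of smallest p in each, the levels' extremes in each complex and the isoform sets. Lists have up to 3 names each, with more for the regulators. Same-numbered libraries did not deviate together (correlations −0.0381 to 0.0657), so the numbers were not taken as pairs. Some genes that the rule would name are not reported here.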

Additional observations from a re-analysis of the deposited data

How the results depend on the processing

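Only 2 libraries per group limit every test, and 4846768 to 7469052 exon reads per library leave the low isoforms near 0. Of 439 values for single named members under settings that kept all libraries, 411 kept direction and side of the threshold. The cause of the changes below was not tested. Counts of members called moved as follows. Apart from the shares given above, the share of all genes called in each setting is not given, the replicate block included. These counts therefore show how calls depend on the setting and are not results about the members. XRN2 siRNA against both LN229 control siRNA libraries gave 2, but 13 with no filter and 0 in the line alone (COX8A adjusted p = 0.113). Against LN229 mock it gave 0, but 2 with DESeq2, 3 with no filter and 3 with the exon length offset. Against U251 mock, and against U251 control siRNA replicate 2 and mock, no filter gave 1 each. Leaving out 1 library at a time gave 0 to 59 against the LN229 control siRNA, 0 to 3 against LN229 mock, 0 to 1 against U251 mock, 1 to 6 against LN229 control siRNA replicate 2 and mock, 0 to 60 for LN229 control siRNA against mock, 19 to 33 between the lines and 0 to 35 for the difference in response.

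With the replicate number as a block, the count against LN229 mock was 1 (COX8A) and that between the lines was 30. The block changed no other count by over 1.5 times; ATP5C1 did not pass with it (adjusted p = 0.0652), nor SDHB between the lines (adjusted p = 0.110), while NDUFS8 did (adjusted p = 0.0440). The numbers are shared labels only.

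Log2 ratios of summed reads moved by more than the replicate SD as follows. Between the lines in mock, library sizes alone gave 0.20 for all members, 0.064 for complex I, 0.47 for II, −0.086 for III, 0.21 for IV and 0.40 for V, and unique reads gave 0.25 for II. Leaving out 1 library at a time there gave −0.075 to 0.12 for all members, −0.20 to −0.025 for I and −0.080 to 0.14 for IV, each highest without U251 mock replicate 1. With library sizes alone in LN229, the ratios against mock and against control siRNA replicate 2 and mock were 0.057 and 0.056 for all members, 0.019 and 0.035 for complex I, 0.055 and 0.062 for II, 0.090 and 0.070 for III, and 0.13 and 0.12 for V, and −0.028 against the latter for IV. With DESeq2 size factors complex I was at −0.017 and −0.0063 and complex III at 0.054 against mock, and with unique reads complex I was at −0.027. For complex V in U251 against control siRNA these 3 settings gave 0.020, 0.0027 and 0.017. Leaving out 1 library at a time against control siRNA in LN229 gave −0.57 to −0.023 for all members, −0.62 to −0.0098 for I, −0.28 to −0.00073 for II, −0.56 to −0.046 for III, −0.71 to −0.11 for IV and −0.49 to 0.020 for V. Against LN229 mock it gave −0.044 to 0.027 for II and −0.16 to −0.022 for IV, and with control siRNA replicate 2 added −0.042 to 0.030 and −0.16 to −0.029. In U251 it gave −0.029 to 0.0042 for all members and −0.082 to −0.013 for II against control siRNA. Against U251 mock it gave −0.054 to 0.14 for all members, −0.031 to 0.15 for I, −0.081 to 0.14 for IV and −0.072 to 0.15 for V.

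Against both LN229 control siRNA libraries, ATP5C1 and NDUFB5, at −0.316 and −0.308 without control siRNA replicate 2, turned above 0 with library sizes alone (0.0036 and 0.059) and without control siRNA replicate 1 (0.19 and 0.31). ATP5C1 did so with the length offset (0.044) and NDUFB5 without XRN2 siRNA replicate 1 (0.012).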
